A study of Mus musculus with 4 samples.

Results

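Insertions and deletions (indels) found in 1 sample only were read from whole-exome sequencing of c-Kit+ leukemia cells, which carry the stem and progenitor receptor Kit, taken from bone marrow. The 4 samples came from moribund C57BL/6 mice of 1 genotype, E2-KO, which the series title gives as Nras-G12D with Ezh2 KO. Nras-G12D keeps the small GTPase Nras in its active form, and Ezh2 is the methyltransferase of Polycomb repressive complex PRC2. All 4 samples carry both lesions, no matched normal tissue or control genotype was analysed here, and the labels give no promoter or Cre line. The mice carry no number in the labels. The names replicate 1 to replicate 4 follow the listing order, and a p-value here reflects sample-to-sample spread alone, part of which may be technical.

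An indel entered the set if it lay on an autosome and both callers, SpeedSeq and VarScan2, listed the same position and alleles. Each caller had to count a depth of at least 20 reads, at least 3 variant reads and a variant allele fraction (variant reads over reads at the site) of at least 20%. SpeedSeq also had to give a quality score of 20 or more, with variant reads mapped at a mean quality of 50 or more. The position had to be listed by neither caller, at any depth, in the other 3 samples. This gave 1094 sample-specific indels out of 9124 passing indels summed over the samples (4676 distinct ones). Replicates 1, 2, 3 and 4 held 223 of 2327, 206 of 2465, 580 of 2486 and 85 of 1846, or 9.58%, 8.36%, 23.3% and 4.60% of their passing indels. The mean was 273.5 ± 213 per sample (SD, n = 4), and replicate 3 alone held more than the other samples together. Median depth was 41, 40, 45 and 39 reads in replicates 1 to 4.

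The members were thus chosen by their allele fraction, variant reads, depth, quality and absence from the other files, and these values are described without a test. Absence means only that a position was not listed. At depth 20 or more VarScan2 listed no autosomal indel under 20% and SpeedSeq listed 1, at 19.05% in replicate 2, so the same indel at a lower fraction in another sample would not appear. The variant files give no depth where nothing was called. With that floor, no sample-specific indel could be seen just below the 20% minimum. Those just inside it were in Usp34 (16 of 80 reads, 20%), Ripor2 (12 of 60 reads, 20%), Cd55b (7 of 34 reads, 20.6%) and Lrrc36 (17 of 82 reads, 20.7%), and at chr15:75085671 outside any gene (5 of 25 reads, 20%).

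As background, an indel whose length is not a multiple of 3 shifts the reading frame when it lies in coding sequence. Runs of a single base or of a short unit lose and gain copies readily because the DNA polymerase slips on them, in cells as in library amplification and sequencing. In cells, mismatch repair corrects most such slips. Indels inherited from a mouse of another strain lie instead in blocks with single-nucleotide variants (SNVs) of the same origin. Genes are named here by RefSeq gene bodies of GRCm38.p6, exons were not used, and whether an indel is exonic, intronic or in a UTR is not given.

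The members are described by 2 features. A member was called near a private SNV if a confident SNV listed only in the same sample lay within 500 kb, and scattered otherwise. It was said to lie in a long repeat if the SpeedSeq reference allele held at least 6 tandem copies of the inserted or deleted unit. For 216 of the 1094 members that allele ended too soon to show a further copy, so the copies counted there are a minimum. Some members placed outside long repeats may therefore lie in one. The windows below are the deposited reference alleles on the plus strand of mm10, with the deleted or inserted bases in capitals. In a repeat the callers place the change at the left end of the tract. The first set shows the form that most scattered members took, with examples from leukaemia and Polycomb genes and from genes that had members in more than 1 sample.

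Cebpa, replicate 2, chr7:35121102-35121120, deletion: tCcccccccccccactcag
Suz12, replicate 2, chr11:80007623-80007643, insertion: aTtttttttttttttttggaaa
Knl1, replicate 3, chr2:119057261-119057280, deletion: cTtttttttttttttaacag
Ptprc, replicate 1, chr1:138080466-138080500, deletion: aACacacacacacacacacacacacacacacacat
Ddx31, replicate 1, chr2:28892610-28892641, deletion: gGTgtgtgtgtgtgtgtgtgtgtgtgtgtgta

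The second set shows scattered members outside long repeats, the exceptions to that form.

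Jak1, replicate 3, chr4:101163638-101163640, insertion: cCAGCCATCCTCTTca
Arhgef12, replicate 2, chr9:42989888-42989922, deletion: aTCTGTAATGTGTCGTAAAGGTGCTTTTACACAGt
Ces2g, replicate 3, chr8:104964585-104964594, insertion: tTAATATTCtaatattct
Foxp2, replicate 3, chr6:15378004-15378020, insertion: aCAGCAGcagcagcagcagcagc
no protein-coding gene, replicate 4, chr3:37599844-37599857, insertion: cACGGAGTGAGCAacggagtgagcaa

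The third set shows members near private SNVs, where longer changes of mixed sequence stood.

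Th, replicate 1, chr7:142896520-142896550, deletion: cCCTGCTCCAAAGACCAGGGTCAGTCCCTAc
Gpd1, replicate 3, chr15:99720518-99720540, deletion: tCAAAATAAGAGGTTGTCCCTCc
Galnt6, replicate 3, chr15:100697051-100697073, deletion: aGCATGCCTTGTCTGTTCCTGGg
Cyp2e1, replicate 2, chr7:140774745-140774747, insertion: cCTGGAAACTGCTGACGct

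Over the 1094 members there were 632 deletions, the longest of 33 bases, and 462 insertions, the longest of 16 bases. A single base was gained or lost in 723 (66.1%), 2 bases in 131, 3 bases in 67, 4 to 9 bases in 146 and 10 or more in 27. The length was a multiple of 3 in 101. Variant reads lay on both strands, in both callers, in 817 (74.7%). A protein-coding gene body held 985 (90.0%). A long repeat held 630 (57.6%).

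Set against the rest, meaning the indels that passed the same filters in the same sample but were listed in another sample too, the members lay more often in long repeats in each of the 4 samples. Many indels of the rest count in several samples (9124 passing indels were 4676 distinct ones). The SDs of the rest are therefore not independent spread between samples. Membership in 1 sample also depends on the files of the others, so the 4 differences tested are not fully independent. The shares were 65.02%, 78.2%, 42.9% and 88.2% of members in replicates 1 to 4, against 39.2%, 42.4%, 42.4% and 44.1% of the rest. Replicate 3 stood apart, with members only 0.486 percentage points above the rest. The mean was 68.6% ± 19.6 of members and 42.0% ± 2.07 of the rest, and the difference was 26.6 ± 18.9 points (SD, n = 4). The exact two-sided sign-flip permutation test gave p = 0.125, the smallest value that 4 samples allow, so no share could pass 0.05. Adjusted by Benjamini-Hochberg over the 7 shares compared, p was 0.292. With absence judged over the remaining samples, the difference was 30.5 points without replicate 3 and 11.4 points without replicate 2, with 19.9 to 20.4 points without the other two.

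Lengths that are a multiple of 3 were less common among members in all 4 samples, at 7.62%, 6.796%, 11.6% and 3.53% of members against 12.5%, 11.8%, 12.5% and 12.6% of the rest. The difference was -4.96 ± 3.33 points (SD, n = 4; exact permutation p = 0.125, adjusted 0.292). It was 0.372 points at an allele fraction minimum of 30%. Variant reads on both strands were also less common among members in all 4 samples, at 73.9% ± 7.10 of members and 79.4% ± 4.35 of the rest (difference -5.54 ± 5.34 points, n = 4, exact permutation p = 0.125, adjusted 0.292). The gap came mostly from replicate 2, with 69.4% of members and 79.3% of the rest, and replicate 4, with 68.2% and 78.6%. Median depth was 41, 40, 45 and 39 reads for members and 44, 42, 47 and 44 for the rest. The sets were not matched for variant reads, and the part of read number in this gap was not tested.

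Single-base changes made up 70.2% ± 7.74 of members and 59.97% ± 1.31 of the rest, a difference of 10.2 ± 8.72 points, higher in 3 of 4 samples (n = 4, exact permutation p = 0.25, adjusted 0.4375). Replicate 3 was the exception, with 60.7% of members and 61.9% of the rest. Deletions made up 59.7% ± 5.88 of members and 55.5% ± 0.148 of the rest, higher in 2 of 4 samples (n = 4, exact permutation p = 0.5, adjusted 0.7). Gene bodies held 87.1% ± 5.99 of members and 87.8% ± 0.837 of the rest, higher in 2 of 4 (n = 4, exact permutation p = 0.875, adjusted 0.875). The neighbourhood of a private SNV held 51.6%, 36.4%, 83.8% and 16.5% of members in replicates 1 to 4, against 46.4%, 47.6%, 38.9% and 35.0% of the rest (n = 4, exact permutation p = 0.875, adjusted 0.875). Private SNVs were picked by the same absence from the other samples as the members. This share is thus not independent of the rule, and no conclusion is drawn from its test.

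**Figure D1:**
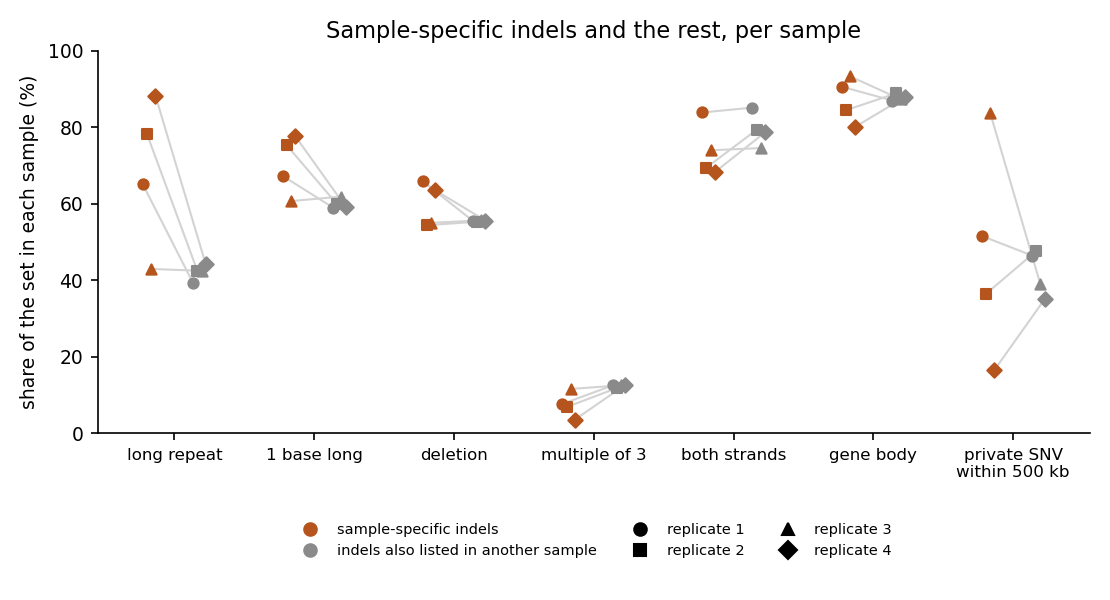
Share of each set (vertical axis, %) with each of 7 properties (horizontal axis), with sample-specific indels left of indels also listed in another sample. Each symbol is 1 replicate and grey lines join the same sample. The long-repeat share is higher in the sample-specific indels of all 4 samples, by 0.486 points only in replicate 3, and the share near a private SNV goes in opposite directions.

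Divided by neighbourhood, 404 members were scattered and 690 lay near a private SNV. This division and its 6 tests were chosen after values were seen. Scattered members numbered 108, 131, 94 and 71 in replicates 1 to 4, while members near a private SNV numbered 115, 75, 486 and 14. The scattered number was thus of similar size in the 4 samples, and the excess of replicate 3 lay near private SNVs. Scattered members fell on 19, 19, 18 and 18 of the 19 autosomes, with at most 15, 15, 11 and 11 on any one. A call of any kind at depth 20 or more lay within 100 bases in at least 1 other sample for 27 of the 404 scattered members (6.68%) and 53 of the 690 others (7.68%), so the depth of the other samples at most members is unknown.

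**Figure D2:**
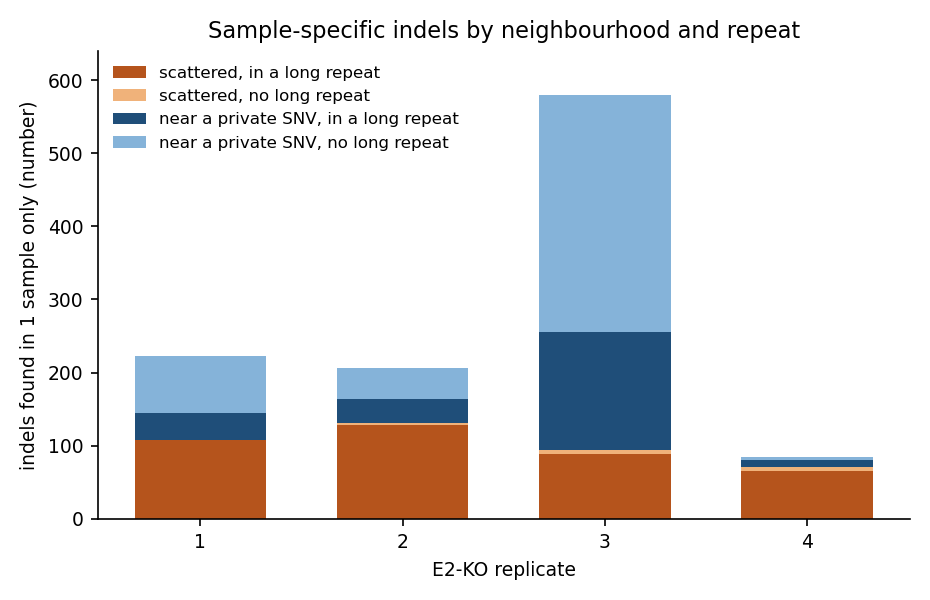
Number of sample-specific indels (vertical axis) in each E2-KO replicate (horizontal axis), stacked by neighbourhood and by whether they lie in a long repeat. Scattered members number 71 to 131 per sample and nearly all lie in long repeats, and members near a private SNV number 14 to 486.

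Nearly all scattered members were copy-number changes of a long repeat. The share in long repeats was 100%, 97.7%, 93.6% and 91.5% of scattered members in replicates 1 to 4, against 32.2%, 44%, 33.1% and 71.4% of members near a private SNV. The difference was 50.5 ± 21.1 points (SD, n = 4), higher in 4 of 4 samples, with an exact permutation p = 0.125 and 0.1875 adjusted over the 6 shares. Replicate 4 had only 14 members near a private SNV. Away from private SNVs the rest lay in long repeats at 48.9%, 53.9%, 49.5% and 51.8%.

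Single-base changes made up 86.6% ± 4.39 of scattered members and 52.0% ± 5.51 of those near a private SNV (difference 34.6 ± 9.61 points, 4 of 4 samples higher, n = 4, exact permutation p = 0.125, adjusted 0.1875). A length that is a multiple of 3 was found in 0%, 2.29%, 1.06% and 1.41% of scattered members, against 14.8%, 14.7%, 13.6% and 14.3% of members near a private SNV. The difference was -13.1 ± 1.12 points (n = 4, exact permutation p = 0.125, adjusted 0.1875), and no scattered member was exactly 3 bases long. Deletions made up 65.1% ± 4.59 of scattered members and 48.1% ± 15.4 of the others (higher in 4 of 4 samples, n = 4, exact permutation p = 0.125, adjusted 0.1875). Support on both strands, at 71.3% ± 6.26 of scattered members and 69.2% ± 19.3 of the others, was higher in 2 of 4 samples (n = 4, exact permutation p = 0.875, adjusted 0.875), and so strand support did not separate the classes in one direction. The gene-body share was 87.1% ± 4.91 of scattered members and 85.5% ± 7.47 of the others (n = 4, exact permutation p = 0.625, adjusted 0.75).

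The repeats were mostly runs of A or T. Of the 389 scattered members in long repeats, 325 (83.5%) changed a run of A or T of 8 to 28 bases (median 14). A further 31 changed a run of C or G of 10 to 16 bases, 18 an AC repeat, 11 an AG repeat, 3 an AT repeat and 1 an AAAC repeat, counting both strands of each unit together. Members near a private SNV in long repeats also lay mostly in A or T runs (180 of 241), with a median length of 10 bases, and 46 lay in C or G runs.

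Tract length also differed between the classes. Of 363 scattered members that changed a single-letter tract, 7 stood in tracts of up to 5 bases, 3 in tracts of 6 to 9, 95 in tracts of 10 to 12, 164 in tracts of 13 to 15 and 94 in longer ones. Of 434 such members near a private SNV, 208, 102, 82, 31 and 11 stood in the same classes. Of 5456 indels in the rest, 2316, 1032, 858, 654 and 596 did. Away from private SNVs, members made up 0.613% of passing single-letter indels in tracts of up to 5 bases (7 of 1141) and 0.538% at 6 to 9 bases (3 of 558). They made up 13.3% at 10 to 12 bases (95 of 714), 24.05% at 13 to 15 bases (164 of 682) and 15.4% in longer tracts (94 of 612). In the 13 to 15 class the share was 26.6%, 26.5%, 25.9% and 16.7% in replicates 1 to 4. In tracts of up to 5 bases it was 0%, 0%, 0.968% and 1.48%, below every sample of the 13 to 15 class. Neighbouring classes were not apart in this way. The share was 12.3%, 16.7%, 13.2% and 10.1% at 10 to 12 bases and 18.8%, 20.3%, 9.86% and 9.76% in longer tracts.

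**Figure D3:**
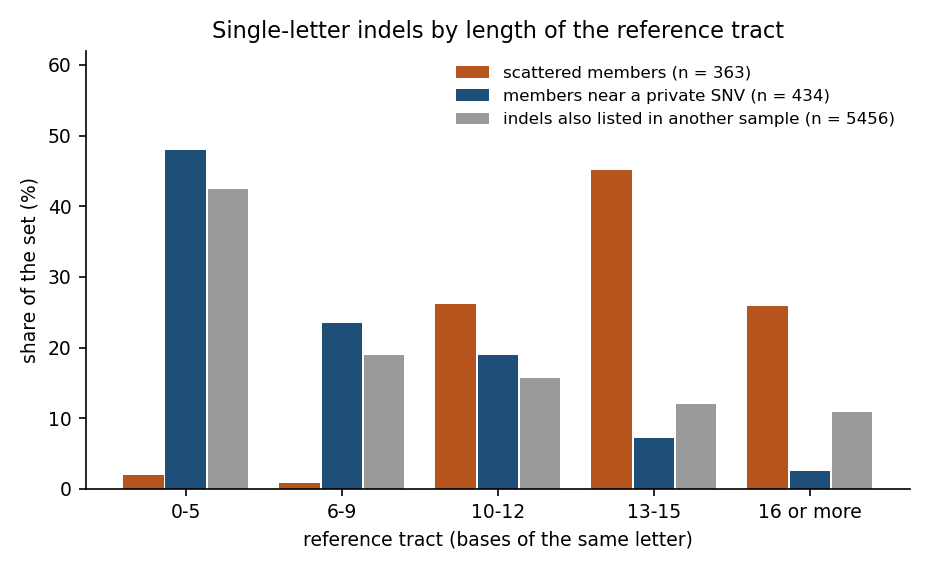
Share of each set (vertical axis, %) by length of the single-letter reference tract (horizontal axis, bases), over all 4 samples, for scattered members, members near a private SNV and indels also listed in another sample. Scattered members stand mainly at 13 to 15 bases (164 of 363), and both other sets stand mainly at up to 5 bases.

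Allele fractions also differed between the classes. The median was 26.97%, 27.5%, 28.6% and 29.9% for scattered members in replicates 1 to 4, against 41.7%, 38.3%, 37.8% and 34.4% for members near a private SNV. Fractions under 25% were found in 108 of 404 scattered members (26.7%) and 34 of 690 others (4.93%), so a larger part of the scattered class lay close to the 20% minimum. Fractions of 65% or more were found in 2 scattered members and 86 others. Allele fraction also varied with tract length among the indels listed in several samples, with a median of 50% in tracts of up to 5 bases and 30.8% in tracts of 16 or more. Median depth was 37.5, 37, 37 and 40 reads for scattered members, against 43, 48, 46 and 36 reads for the others. The part of tract length and depth in the difference of allele fraction was not tested.

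**Figure D4:**
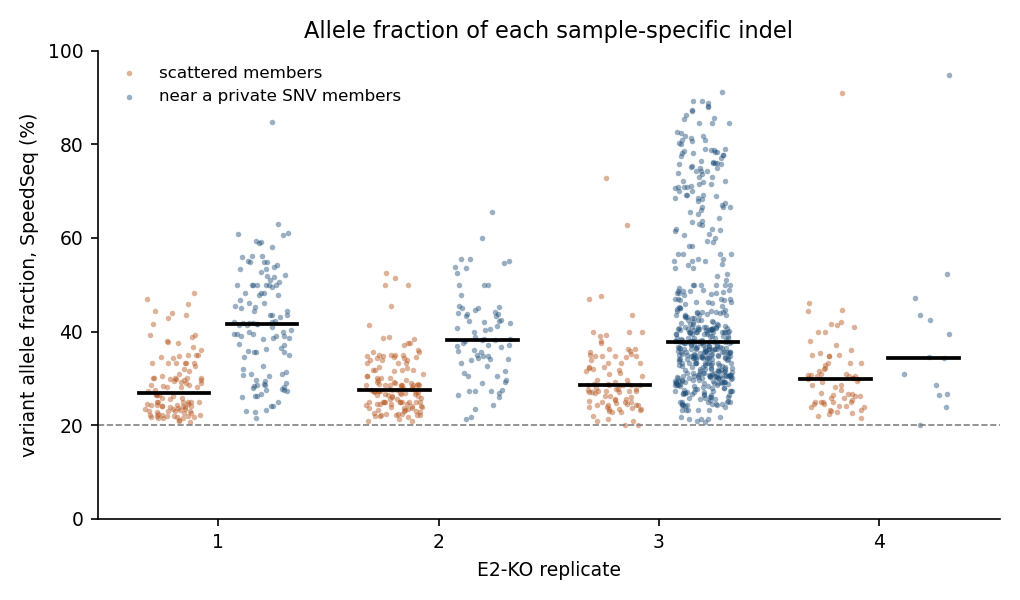
SpeedSeq allele fraction (vertical axis, %) of every sample-specific indel by E2-KO replicate (horizontal axis), with scattered members left of members near a private SNV. Black lines are medians, horizontal jitter is random and the dashed line is the 20% minimum. Scattered members sit mostly under 40%, and replicate 3 alone has a group near private SNVs above 65%.

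Members near private SNVs lay on 12, 11, 11 and 7 chromosomes in replicates 1 to 4. In replicate 3, all 327 members of chromosome 9 lay near private SNVs, from chr9:54180127 to chr9:111347770, with a median allele fraction of 35.8% and 1 member at 65% or more. Replicate 3 also had 73 on chromosome 15 between chr15:96188501 and chr15:102425864, with a median of 73.7% and 57 at 65% or more. It had 26 on chromosome 18 between chr18:63720748 and chr18:67870553, with a median of 75.6% and 24 at 65% or more. These stretches differed in level although they come from 1 sample. Lengths that are a multiple of 3 numbered 42, 16 and 5 in these stretches. Replicate 3 also had 25 on chromosome 5 (median 33.3%) and 19 on chromosome 1 (27.8%). Replicate 1 had 30 on chromosome 4 (median 41.8%), 27 on chromosome 9 (45.1%), 23 on chromosome 3 (40.4%) and 13 on chromosome 17 (47.8%). Replicate 2 had 31 on chromosome 17 (41.25%) and 11 on chromosome 11 (37.0%). No other chromosome of any sample held more than 11 such members. Allele fractions in replicate 3 were also lower for SNVs listed throughout the file, with medians of 37.8% and 80.2% below and above 65%, against 45.2% to 46.2% and 100% in the other samples.

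Both callers counted the same indel differently. SpeedSeq gave the higher fraction in 605 of 723 members of 1 base and in 26 of 27 members of 10 bases or more, and the median gap was 2.48 points for 1 base and 8.62 points for 10 or more. In long repeats the median was 30.4% in SpeedSeq and 25.95% in VarScan2. The widest gap, 57.9 points, belonged to the 12-base insertion at chr3:37599844 in replicate 4, shown above, which SpeedSeq counted in 40 of 44 reads (90.9%) and VarScan2 in 38 reads of a listed coverage of 115 (33.0%). Its mean mapping quality was 51.6 and the lncRNA gene Gm36412 and the pseudogene Gm12565 overlap it.

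**Figure D5:**
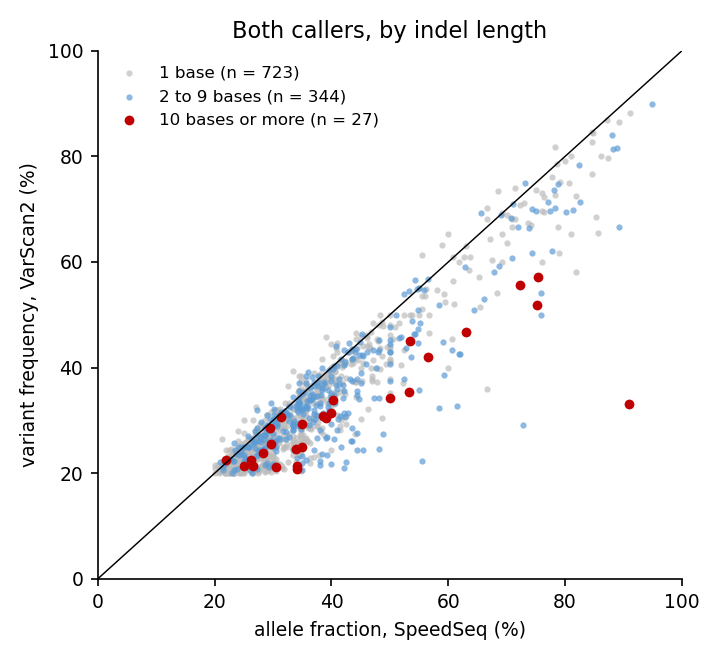
VarScan2 variant frequency (vertical axis, %) against SpeedSeq allele fraction (horizontal axis, %) for each sample-specific indel, coloured by length, with the line of equality. Most points lie below the line, and the median gap is largest for members of 10 bases or more, though single shorter members also lie far below it.

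The gene lists were chosen with earlier results of these data known. The RAS pathway list (0 of 23 genes), the splicing factor list (0 of 10 autosomal genes) and the branched-chain amino acid list (0 of 14 genes) had none. Over all autosomal protein-coding genes 697 of 20661 (3.37%) held at least 1 member. The myeloid list had 1 of 20 genes (5%), the Polycomb and chromatin list 2 of 31 (6.45%), the cohesin and CTCF list 1 of 8 (12.5%), the JAK-STAT and cytokine list 2 of 18 (11.1%) and the DNA repair list 1 of 29 (3.45%). The lists were not tested against that share. Nras and Ezh2 themselves held no member.

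Cebpa, the transcription factor of granulocyte differentiation, had a 1-base deletion in the run of 12 C shown above in replicate 2. It was in 11 of 34 reads (32.4%, exact binomial 95% interval 17.4% to 50.5%), 8 forward and 3 reverse, and VarScan2 gave 29.0%. Suz12, a core partner of Ezh2 in PRC2, had a 1-base insertion in a run of 15 T in the same sample, in 7 of 22 reads (31.8%, 13.9% to 54.9%), all reverse. Both were scattered single-base changes of long runs, the commonest form among the scattered members, and Suz12 had its reads on 1 strand. The binomial intervals cover counting error only.

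Jak1, the tyrosine kinase of many cytokine receptors, held a scattered member outside a long repeat. Replicate 3 had a 13-base insertion there in 20 of 91 reads (21.98%, 14.0% to 31.9%), 18 forward and 2 reverse, and VarScan2 gave 22.5%. Kmt2c, a histone H3 lysine methyltransferase, had 3 members in replicate 3, at 39.5%, 25% and 32%. Stag1, a cohesin subunit, had 6 members in replicate 3 at 28.6% to 41.9%, all in the chromosome 9 stretch and 3 of them in long repeats. The members of Kmt2c and Stag1 all lay near private SNVs.

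The control list of giant genes and large families, picked as genes with no known part in leukaemia, held 29 members in 25 of 1866 genes (1.34%). The deepest were 1-base deletions near private SNVs. Olfr1330 in replicate 1 had 145 of 348 reads (41.7%), its neighbour Olfr1329 had 143 of 341 (41.9%), and the vomeronasal receptor Vmn2r100 in replicate 2 had 160 of 320 (50%). Mean mapping quality was 52.6 at Olfr1330, close to the minimum of 50, 59.0 at Olfr1329 and 59.9 at Vmn2r100. Replicate 2 held 10 members in Vmn2r genes, against 1 in replicate 1 and none in replicates 3 and 4.

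Only 15 scattered members lay outside long repeats, named here after their values were seen. Olfr272, an olfactory receptor gene, carried the most even support, a 1-base deletion in replicate 4 in 35 of 76 reads (46.1%, 34.5% to 57.9%), 17 forward and 18 reverse, with 44.2% in VarScan2. Ppard, a nuclear receptor, had a 1-base insertion in replicate 3 in 24 of 76 reads (31.6%, 21.4% to 43.3%), 13 forward and 11 reverse. Il18rap, a subunit of the interleukin-18 receptor, had a 1-base deletion in replicate 3 in 16 of 34 reads (47.1%), 15 forward and 1 reverse. Col5a1, a fibrillar collagen, had one in 14 of 39 reads (35.9%), 2 forward and 12 reverse. Of these 4, Olfr272 and Ppard thus had balanced strands.

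Several of the others had reads on 1 strand only. Arhgef12, a guanine nucleotide exchange factor, had the longest member, the 33-base deletion in replicate 2, in 13 of 26 reads (50%), all forward. Ces2g, a carboxylesterase, gained a further copy of an 8-base unit in replicate 3 in 20 of 72 reads (27.8%), all forward. Foxp2, a forkhead transcription factor, gained 2 copies in a CAG repeat of at least 5 copies in replicate 3 in 11 of 33 reads (33.3%), all reverse. The deposited allele ended there, so this repeat may reach the 6 copies of a long repeat. Actr1a (8 of 32 reads, 25%), Pdzd7 (7 of 20 reads, 35%) and Slc25a12 (6 of 21 reads, 28.6%) in replicate 4 likewise had reads on 1 strand. Outside protein-coding genes, replicate 2 had a 21-base deletion at chr9:57179289 in the lncRNA gene 1700041C23Rik (17 of 44 reads, 38.6%) and an 8-base deletion at chr15:75085637 (21 of 74 reads, 28.4%). Their mean mapping qualities, 50.4 and 51.2, lay close to the minimum of 50. Replicate 4 had a 1-base deletion at chr17:39844873 (17 of 71 reads, 23.9%) and the chr3:37599844 insertion described above. Some scattered members outside long repeats lay not far beyond the distance that counts as near a private SNV. The nearest private SNV was 507770 bases from the chr3:37599844 insertion and 609231 from Ces2g. It was 659451 bases from Arhgef12 and 826751 from the deletion at chr9:57179289. All the others lay farther away, the closest being Foxp2 at 2.2707e+06 bases.

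At chr15:75085671, 34 bases from that 8-base deletion, replicate 4 had a member of its own. One other pair of members from different samples stood within 100 bases, in Rps27l, a ribosomal protein gene. Replicate 2 lost 1 T at chr9:66949237 (45 of 101 reads, 44.6%) and replicate 3 lost 3 bases at chr9:66949245 (34 of 156 reads, 21.8%), 8 bases apart.

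Of the 697 genes with a member, 551 had 1, 78 had 2, 34 had 3 and 34 had 4 or more. Members in more than 1 sample were found in 22 genes, which together held 58 members, 35 of them in long repeats (60.3%, against 57.6% of all 1094 members). No position recurs, by the rule. In 12 of the 22 genes every member lay in a long repeat. These were Adgrv1 (an adhesion receptor), Cnot6 (an mRNA deadenylase), Ddx31 (a helicase), Dnm3 (a dynamin), Etv1 (an ETS transcription factor), Gpam (an acyltransferase), Kansl2 (of a histone acetyltransferase complex), Knl1 (a kinetochore scaffold), Ppp4r3b (of phosphatase 4), Ptprc (the leukocyte phosphatase CD45), Syncrip (an RNA-binding protein) and Ubr1 (a ubiquitin ligase).

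Between samples these changes stood at different places, and the unit or the direction often differed. Etv1 lost 1 T from a run of 13 in replicate 1 (6 of 21 reads, 28.6%) and from a run of 18 in replicate 2 (16 of 56 reads, 28.6%). Knl1 gained 1 T in a run of 12 in replicate 1 (22 of 97 reads, 22.7%) and lost 1 from a run of 14 in replicate 3 (22 of 89 reads, 24.7%). Dnm3 lost 1 T from a run of 15 in replicate 1 (9 of 30 reads, 30%) and 1 A from a run of 13 in replicate 3 (23 of 84 reads, 27.4%). Ptprc lost 1 AC unit of 16 in replicate 1 (12 of 28 reads, 42.9%) and gained 1 A in a run of 10 in replicate 3 (8 of 28 reads, 28.6%). The fractions in these 4 genes lay between 22.7% and 42.9%.

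The other genes with members in several samples included Atp1a4, Cap1, Fam114a2, Leo1, Lman1, Prex1, Rps27l, Top3a and Tyms. Lman1, a cargo receptor of the secretory pathway, had 3 members in replicate 3 at 68.4% to 74.4%, all near private SNVs in the chromosome 18 stretch. Its 1 member in replicate 1, at 26.5%, was of another kind, scattered and in a long repeat. Tyms, thymidylate synthase, had a 5-base insertion in replicate 4 in 37 of 39 reads (94.9%, 82.7% to 99.4%), 476065 bases from a private SNV. In replicate 3 it lost 1 T from a run of 11 in 13 of 45 reads (28.9%).

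The remaining 124 genes with at least 2 members had them all in 1 sample, 100 of them in replicate 3. Of these 100, 69 lay on chromosome 9, 18 on chromosome 15 and 5 on chromosome 18, and none held a scattered member. Vps13c, a lipid transfer protein gene, had 19 members at 23.3% to 45.2%. Atp2c1, a Golgi calcium pump, had 12 at 28.9% to 41.4%, Col6a5 had 10 at 20.97% to 48.1% and the talin gene Tln2 had 8 at 25.1% to 40.7%. On chromosome 15, Col2a1, the collagen of cartilage, had 7 at 48% to 84.6%, and on chromosome 18 the centrosome gene Cep192 had 6 at 67.4% to 87.1%. All 6 Cep192 fractions lay above those of the 4 chromosome 9 genes, while the lowest in Col2a1 lay just under the highest in Col6a5.

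Replicate 3 further had 4 or more members in Stag1, Als2cl, Col6a4, Dock3, Dop1a, Ibtk, Abhd14a, Cacna2d2, Cep162, Col6a6, Gnai2, Impg1, Pccb, Pik3r4 and Snx14 on chromosome 9, and in Slc4a8, Nedd4l, Arid5b and Nos3 elsewhere. It had 3 in each of 25 genes, namely Cgnl1, Col12a1, Col7a1, Cyb5r4, Ephb1, Esyt3, Gclc, Lrrc1, Me1, Myo1e, Nedd4, Nek11, Pcbp4, Rpl29, Rrp9, Ryk, Unc13c, Acvrl1, Galnt6, Gm38469, Lima1, Rpap3, Alpk2, Nav1 and Kmt2c. It had 2 in each of 50. On chromosome 9 these were 6430571L13Rik, Atrip, Ccnb2, Cep63, Cyp19a1, Fam214a, Fbxw15, Fbxw18, Fbxw20, Gm51691, Hemk1, Iqcf3, Map4, Mns1, Myo6, Myzap, Nbeal2, Parp3, Poc1a, Prtg, Rab8b, Rassf1, Rbm6, Sema3f, Snap91, Spink8, Tbc1d2b, Tcf12, Topbp1, Ttk, Ube2cbp, Wdr72 and Zmynd10. On chromosome 15 they were Espl1, Fam186a, Gpd1, Higd1c, Krt75, Methig1, Pfkm, Scn8a, Slc38a1, Slc38a2 and Sp1, and elsewhere Afg3l2, Wdr7, Sox13, Tnnt2, Actr3b and Nub1. Overlapping genes, such as Gm51691 with Spink8 and Higd1c with Methig1, share members.

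Replicate 1 had 16 such genes, none with members in another sample, of which 14 are named here. Itpr3, a calcium release channel, had 6 members at 46.2% to 54.9%. Luc7l, Pogz, Col9a2 and Vill had 4 each, Ilf2, Jtb, Gpd1l, Ulk4 and Nalcn had 3 each, and Med8, Scn10a, Stt3b and Zkscan7 had 2 each. Replicate 2 had 8, each with 2 members, among them Ttn, Ctps, Ica1, Myh10, Fpr3, Vmn2r107 and Vmn2r94. In Ttn, the giant sarcomere protein gene (23.1% to 29.2%), and Ctps, CTP synthase (21% to 25%), both members were scattered and in long repeats. Replicate 4 had none.

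Of the 27 members of 10 bases or more, 4 were scattered and 23 lay near a private SNV. All of the scattered ones but the Jak1 insertion lay within 826751 bases of a private SNV. Th, tyrosine hydroxylase, had a 29-base deletion in replicate 1 in 24 of 45 reads (53.3%, 37.9% to 68.3%), 12 on each strand. VarScan2 gave 35.3% there. In replicate 3, Gpd1 had a 21-base deletion in 26 of 36 reads (72.2%), Galnt6 a 21-base deletion in 13 of 23 (56.5%), Col2a1 a 10-base deletion in 58 of 77 (75.3%) and Aaas a 14-base deletion of 7 AC units in 29 of 46 (63.0%), all on chromosome 15. These lay at 56.5% to 75.3%. On chromosome 9 in the same sample, Me1 (20 bases, 34.1%), Spink8 with Gm51691 (17 bases, 35%), Tln2 (13 bases, 34.0%), Tbc1d2b (13 bases, 26.5%), Vps13c (13 and 10 bases, 29.4% and 40.3%), Myzap (10 bases, 40%) and Ube2cbp (10 bases, 25%) had lower ones.

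In replicate 1, Jtb had a 16-base insertion in 21 of 80 (26.25%), Celf3 a 14-base deletion in 18 of 46 (39.1%) and Top3a a 14-base deletion in 11 of 35 (31.4%). In replicate 2, Cyp2e1, a cytochrome P450, had a 16-base insertion in 21 of 69 reads (30.4%), and Fpr3, a formyl peptide receptor, a 12-base deletion in 38 of 71 (53.5%). Outside protein-coding genes, a 15-base insertion lay at chr15:81192269 in replicate 2 (29.7%), and replicate 3 had an 11-base deletion at chr9:101053835 (34.9%) and a 19-base deletion at chr18:66511535 (75.2%).

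The following members had the most variant reads, on both strands, among those in protein-coding genes not named above for their list, for several members in the gene or for their length, except that the Olfr and Vmn2r100 deletions are named again. In replicate 1 they were Ccdc30 (50 of 93 reads), S100a8, a granulocyte calcium-binding protein (41 of 104), Elovl1 (36 of 72) and Tmem144 (35 of 107), beside Olfr1330 and Olfr1329. In replicate 2 they were Vmn2r92 (58 of 131), Zfp160 (49 of 113), Fpr2 (38 of 120), Zfp758 (33 of 80) and Vmn2r98 (31 of 80), beside Vmn2r100, and all 6 lay on chromosome 17. In replicate 3 they were Fbxw25 (107 of 265), Pced1b (89 of 113), Ccdc184 (83 of 105), Pou6f1 (76 of 103), Trim43a (70 of 171) and Nars (69 of 86). In these samples all but Tmem144 lay near a private SNV.

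In replicate 4 the 6 members found in this way were scattered, while the Tyms insertion described above, with more variant reads, lay near a private SNV. Besides Olfr272 they were Agk, an acylglycerol kinase (29 of 94 reads, 28 forward and 1 reverse), Prmt3, an arginine methyltransferase (27 of 103), Adk, adenosine kinase (26 of 113), the kinase gene Gsk3b (22 of 61) and Ube2f, a NEDD8-conjugating enzyme (21 of 63). The last 5 changed long repeats, with 13 A, 16 T, 16 T, 21 T and 13 CT copies in that order.

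The 32851 promoter windows, from 250 bases before to 50 bases after a gene's start, held 8 members, 1 of them scattered. No member lay in any of 2743 miRNA entries. The share of the rest in these windows is not given, so the count of 8 is not read as high or low. The reference bases of all 8 matched the RefSeq GRCm38.p6 windows. Fragments of those windows are shown for the scattered member and for 3 others with changes of several bases, to show the bases around each change.

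Gm41173, replicate 1, chr14:62332213-62332253, insertion: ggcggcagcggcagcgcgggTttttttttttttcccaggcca
Fam214a, replicate 3, chr9:74952954-74953001, deletion: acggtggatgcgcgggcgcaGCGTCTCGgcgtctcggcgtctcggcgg
Hemk1, replicate 3, chr9:107338330-107338376, deletion: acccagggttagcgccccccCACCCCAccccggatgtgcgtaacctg
Mst1r, replicate 3, chr9:107914938-107914978, insertion: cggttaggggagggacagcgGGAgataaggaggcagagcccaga

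Capitals again mark the changed bases, on the plus strand. The Gm41173 insertion, in a run of 12 T, was in 7 of 28 reads (25%). Fam214a lost 1 of 3 copies of an 8-base unit 79 bases before its start in 16 of 38 reads (42.1%). Hemk1, a protein methyltransferase gene, lost 7 bases 6 bases before its start in 15 of 38 reads (39.5%), and Mst1r, a receptor tyrosine kinase gene, gained 3 bases 45 bases before its start in 14 of 48 reads (29.2%). The other 4 lay at E330033B04Rik (25 of 45 reads, all reverse), Rab8b (13 of 26), B430319G15Rik (18 of 54) and Fpr3 (40 of 72).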

How the data were processed

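Exome capture used an Agilent SureSelect mouse kit, with paired 100-base reads on a BGISEQ500, per the labels. The authors deposited, for each of the 4 samples, a SpeedSeq variant file and VarScan2 tables of SNVs and indels. Per the file headers, SpeedSeq ran freeBayes 0.9.21 separately on each sample against UCSC mm10, and its quality is a Phred score. Depth and variant reads are deposited read counts, and the VarScan2 frequency is a percent in the deposited tables. Builds mm10 and GRCm38 appear in the submitters' processing notes. Not given in the sources used here are the aligner, duplicate handling and the VarScan2 version.

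Alleles were trimmed to 1 anchor base and matched between callers (Python 3.11.15, pandas 2.3.3, numpy 2.4.6, scipy 1.17.1). The SpeedSeq fraction is variant reads over depth. A private SNV was confident in both callers (depth of at least 10, 3 variant reads, fraction of at least 0.1, quality of at least 20) and listed by neither caller in another sample. Depth of members was 20 to 419 reads (median 43). PCR reads are not independent molecules, so the exact binomial (Clopper-Pearson) 95% intervals cover counting error only. Shares were compared over the 4 samples by an exact two-sided sign-flip permutation test (16 patterns) with Benjamini-Hochberg adjustment. The rule was tested on simulated calls.

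Named were members in listed genes, genes with 2 or more members, members of 10 bases or more in genes, up to 6 further members per sample by variant reads, and those nearest the 20% minimum. Scattered members outside long repeats were added after their values were seen. The members and gene lists were chosen with earlier results of these data known. Sex chromosomes were left out by the rule. Members in some genes are not reported here.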

Additional observations from a re-analysis of the deposited data

How the results depend on the processing

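The sign of the mean difference held in every alternative for the long-repeat share of members against the rest. That mean was 10.98 to 33.1 points over 10 settings and 11.4 to 30.5 with a replicate left out. The sign of the mean also held for the single-base, deletion and both-strand differences. It held too for the long-repeat, single-base and multiple-of-3 differences between scattered members and members near a private SNV. The other differences between these classes, deletions among them, were not compared in this way. With the members as described, the deletion difference between members and the rest was 4.20 ± 5.83 points, higher in only 2 of 4 samples. At the 30% allele fraction minimum, however, several means were smaller than their SD over the 4 samples. The long-repeat difference was 10.98 ± 13.7 points there and the single-base difference 2.36 ± 8.47. The deletion difference was 1.33 ± 9.71 and the both-strand difference -6.99 ± 9.07. The exact test cannot pass 0.05 at this size, so directions only are compared. Leaving out a replicate leaves fewer files in which a position can be listed, which by construction raises the number of members. Members per sample averaged 411.5 at a depth minimum of 10, 133 at an allele fraction minimum of 30%, 652.25 in VarScan2 alone, 174 with no other call of the same sample within 100 bases, and 277 to 536.667 with a replicate left out. Their median allele fraction was 35.6%, 41.2% and 24.7% under the first 3 of these and 32.9% to 38.5% with a replicate left out, against 32.4% with the members as described. The multiple-of-3 difference was 0.372 points at the 30% minimum. The gene-body difference changed sign without the quality minimums (1.98 points), in VarScan2 alone (1.30), with no other call within 100 bases (1.09) and with a replicate left out (-1.75 to 3.69). The difference in the share near a private SNV was -7.76 points when near meant within 2 Mb (chosen after seeing the data) and -4.33 to 20.1 with a replicate left out, negative without replicate 3. The 15 scattered members outside long repeats became 38 at depth 10, 8 at the 30% minimum, 23 without the quality minimums, 6 with no other call within 100 bases, 9 with variant reads on both strands only and 10 to 17 with a replicate left out. The cause was not tested. The deposited VarScan2 alleles gave no repeat context. The tests compared sets of indels within each sample, and no comparison between groups was possible because the 4 samples form 1 group. Depth limits single fractions, as the intervals beside them show.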

Other observations

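A further kind of sample-specific indel lies outside the rule. At positions that another sample lists too, 38, 42, 53 and 28 passing indels of replicates 1 to 4 had an allele that only their own sample had, and 36, 42, 52 and 28 of these lay in long repeats.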
